A study of Mus musculus with 2 samples.

Results

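Genes of the Rbm, Srsf and Hnrnp families, mostly encoding RNA-binding proteins, were examined in mouse embryonic stem (ES) cells with and without induced CTCFL. Members were taken by symbol: Rbm followed by a number, m or x, Srsf followed by a number, and Hnrnp. Of 19938 genes that could be named on the array, 65 were members. These were 38 of the Rbm, 10 of the Srsf and 17 of the Hnrnp family. Among the Rbm members, Rbm3os is a long noncoding RNA gene and Rbm8a2 a pseudogene. The cells carried ROSA26-rtTA, which makes the doxycycline-dependent activator from a ubiquitously active locus, and a TRE-mCTCFL-V5-GFP-neomycin transgene, which encodes CTCFL, the testis paralog of the DNA-binding protein CTCF, tagged with V5 and with green fluorescent protein (GFP). Both were present in both groups, and transfected clones were selected with G418. The induced group was 1 array of cells that had received doxycycline over 3 days and had been sorted by their GFP. The non-induced group was 1 array of the same kind of cells without doxycycline, for which no sorting is described. Doxycycline, CTCFL and, as far as described, sorting thus differed together and cannot be told apart. With 1 array per group there was no replicate check and no test was made.

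Proteins of these families bind nascent and mature transcripts. SR proteins (Srsf) carry arginine-serine repeats and mostly promote the inclusion of exons by recruiting spliceosomal particles, while heterogeneous nuclear ribonucleoproteins (Hnrnp) coat pre-mRNA and often oppose them. The Rbm symbol is given to proteins with an RNA recognition motif and covers unrelated roles, among them splicing, RNA methylation, RNA decay and translation. Many genes of the SR and hnRNP families control their own mRNA through exons that send the transcript to nonsense-mediated decay, so the RNA level need not follow the protein level.

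Signals are given as deposited log2 values and differences as induced minus non-induced. The median of all gene values, 6.36, served as a floor, which 59 members reached in at least 1 array. Rbm11, Rbm20, Rbm24, Rbm46, Rbm8a2 and Srsf12 stayed below it in both. As a check of the labels, Ctcfl was at 9.44 when induced and 5.99 when not (3.45), and Ctcf was at 8.66 and 8.93. All pairs of signals below are given in this order. Of the ES cell markers 10 of 10 reached the floor and 4 were higher in the induced array. Their median difference was -0.01, with a summed log2 signal of 105.3 against 105.9. Of the fibroblast markers 10 of 12 were higher in the induced array, with a summed log2 signal of 80.7 against 77.0, although Pdgfra, Pdgfrb, Postn and Dcn stayed below the floor. Of the muscle and heart markers 6 of 7 were higher (summed 47.1 against 43.98, Myh6 and Ttn below the floor), as were 6 of 9 endoderm markers (54.8 against 53.7, Sox17, Afp, Ttr and Apoa1 below the floor). Of the neural markers 5 of 8 were higher (50.4 in each array, Pax6, Nes, Map2, Neurog2 and Dcx below the floor). Of all 19938 genes 10240 were higher in the induced array. Whether cells of these types were present, and their part in the differences of the members, was not tested. In RNA pooled from many cells, fewer cells of a type cannot be told apart from less RNA per cell.

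The widest difference belonged to Rbm12b2, a gene on chromosome 4 for a protein with several RNA recognition motifs whose function is little known. Its log2 signal was 6.82 (induced) and 8.69 (non-induced). The difference was -1.87, or 3.66-fold. Among the 500 genes closest in mean signal, the middle 95% of differences ran from -0.76 to 0.60. On the probe sets with the highest signal Rbm12b2 was the 1 member of 65 outside its own such range. Such a range leaves some genes outside by construction, and the share of all genes outside was not computed. On own-locus sets, described below, Srsf3 and Srsf10 lay outside theirs too. On the sets with the highest signal Rbm12b2 was also the 1 member lower by log2 1 or more among the 59 that reached the floor. Of the 10697 genes above the floor 1.79% met that size. A further probe set, which the platform assigns to both Rbm12b1 and Rbm12b2, was at 7.38 and 8.56, a difference of -1.17. Rbm12, the more distant paralog, has its signal on a probe set shared with Cpne1, which was at 8.50 and 8.41 (0.09). Tmem67, whose gene overlaps Rbm12b2 in the RefSeq annotation, was at 5.11 and 5.62 (-0.51), below the floor on both arrays. The low signal in the induced array was thus seen on the probe sets that carry an Rbm12b symbol and not on that of Rbm12.

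**Figure D1:**
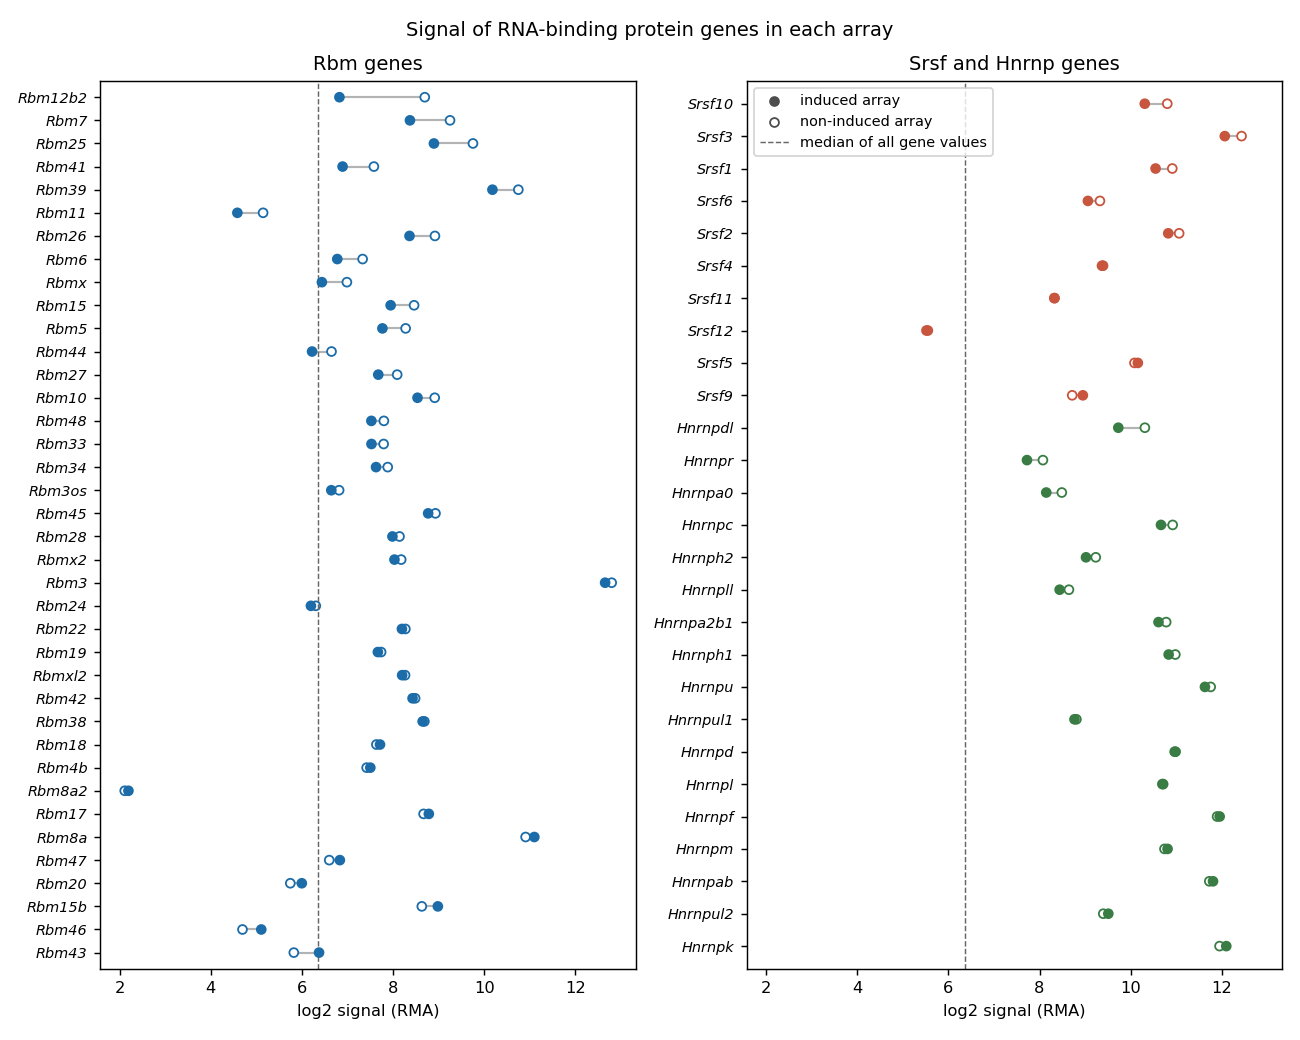
Log2 signal of the 65 members, 1 filled point for the induced and 1 open point for the non-induced array, joined by a line and ordered within each family by the difference. The dashed line is the floor of 6.36. Rbm12b2 has the longest line, from 8.69 to 6.82, and most lines are short.

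No member was higher by log2 1 or more, a size that 0.477% of the genes above the floor met. At a smaller size of log2 0.58, 5 of the 59 members were lower, which were Rbm12b2, Rbm7, Rbm25, Rbm41 and Hnrnpdl. That is 8.47%, against a background of 8.45%. None was higher at that size, against a background of 5.31%. On the probe sets with the highest signal the share of members lower by log2 0.58 was thus close to that of all genes. Probe sets at the gene's own locus, described below for Srsf3 and Srsf10, gave 7 of 59 at that size (11.9%). Their use was chosen after the data were seen. The share of all genes on such sets was not computed at log2 0.58, so the 11.9% has no like background.

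**Figure D2:**
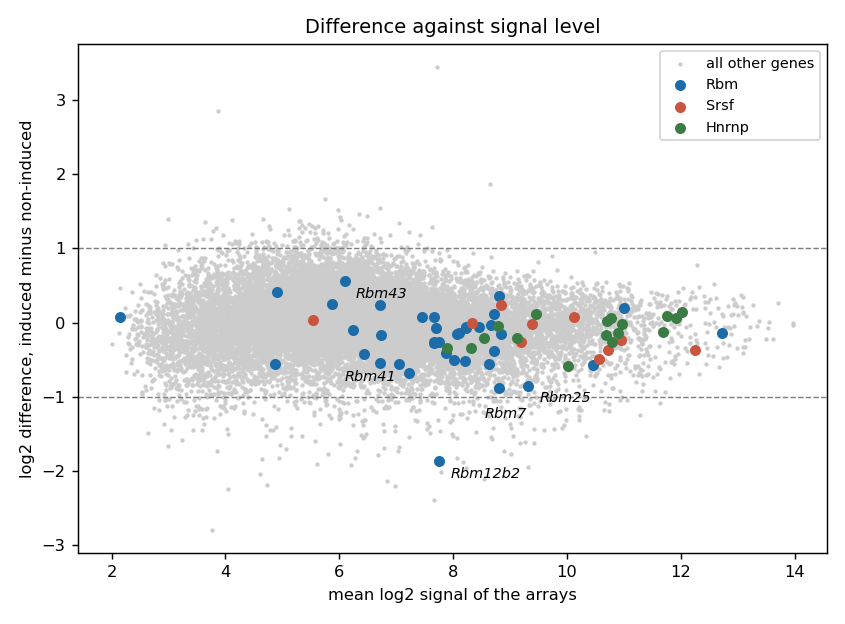
The 19938 genes by mean log2 signal (x axis) and log2 difference, induced minus non-induced (y axis), with the members in the colour of their family. Dashed lines mark differences of 1 and -1. Rbm12b2 is the 1 member beyond them, and Rbm7 (-0.88) and Rbm25 (-0.86) are the next lowest.

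Small differences lay more often below 0, by a margin that depended on the scaling. Of the 65 members 46 were below 0 and 19 above, 70.8% against 48.6% of all genes. Above the floor the figures were 44 of 59 members, 74.6%, against 53.4% of all genes. The median difference was -0.16 for Rbm (28 below 0, 10 above), -0.13 for Srsf (7 and 3) and -0.13 for Hnrnp (11 and 6), while the median over all genes was 0.01. After removal of the trend of the difference on signal, 38 members were below 0 and 27 above (58.5%, against 49.7% of all genes), with Hnrnp at 9 and 8. A second quantile normalization gave 39 and 26 (all genes: 45.8% below 0), and centring of each array 55 and 10 (84.6% against 58.9%). Counts of direction given below are on the deposited scale. The family medians lay close together in value. The middle 50% ran from -0.51 to 0.05 for Rbm, from -0.34 to 0.02 for Srsf and from -0.21 to 0.06 for Hnrnp. Rbm genes ran in all from -1.87 to 0.55, Hnrnp genes from -0.58 to 0.15 and Srsf genes from -0.49 to 0.23, or from -1.37 with own-locus probe sets. Families of unequal size are not comparable in such full ranges. Every family median lay inside the range of the middle 50% of all genes, -0.24 to 0.26, so these are counts of direction and not of wide differences. Removal of the trend left the medians at -0.14 (Rbm), -0.13 (Srsf) and -0.07 (Hnrnp). The second quantile normalization gave -0.19, -0.10 and -0.07.

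**Figure D3:**
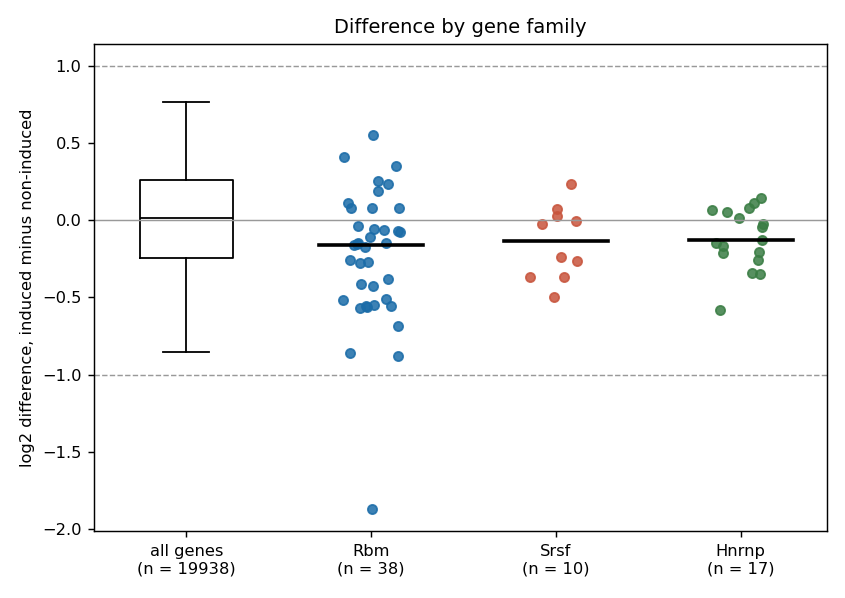
Difference (log2, induced minus non-induced) of each member by family, 1 point per gene, with the family median as a bar. The box gives the quartiles and median of 19938 genes and its whiskers the middle 95%. The 3 medians (-0.16, -0.13 and -0.13) lie just below the median of all genes (0.01), and Rbm12b2 (-1.87) lies far below the whisker.

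Among the Rbm genes with a role in splicing, 11 of 14 were below 0, with a median of -0.33. Rbm25, which regulates the choice of splice sites in apoptosis genes, was at 8.90 and 9.75 (-0.86). Its other 3 probe sets gave -0.44, -0.33 and -0.32, so the direction was shared but the size was not. Rbm41 was at 6.89 and 7.58 (-0.69). Rbm39, a relative of the splice site factor U2af2, was at 10.18 and 10.75 (-0.57). The related regulators Rbm5, Rbm6 and Rbm10 bind around alternative exons, and Rbm5 and Rbm6 are neighbours on chromosome 9. Rbm5 was at 7.76 and 8.27 (-0.51), and Rbm10 at 8.54 and 8.91 (-0.38). Rbm6 was at 6.77 and 7.33 (-0.56), but its other probe set was at 7.07 and 6.90 (0.17), so its direction depends on the probe set. The core spliceosome members differed less: Rbm22, which touches the catalytic RNA, by -0.08, Rbm42 by -0.06 and Rbm17 by 0.12. Rbm48 and Rbmx2 differed by -0.27 and -0.15, and Rbm4b by 0.08. Rbm20, the regulator of titin splicing in heart, differed by 0.25 and Rbm11 by -0.56, both below the floor.

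Of the 7 Rbm genes for RNA modification, exon junction and decay adaptors, 5 were below 0 (median -0.41). Rbm7, the RNA-binding subunit of a complex that leads nuclear transcripts to the exosome, was at 8.37 and 9.25 (-0.88). Rbm26 and Rbm27, paralogs that serve the same exosome by another adaptor, were at 8.36 and 8.92 (-0.56) and at 7.67 and 8.09 (-0.41). These 3 decay adaptors were all lower in the induced array. Rbm15 and Rbm15b, which guide the N6-methyladenosine writer complex, stood on different sides. Rbm15 was at 7.95 and 8.46 (-0.51). Rbm15b was at 8.98 and 8.63 (0.35), but its other probe set was at 6.55 and 7.35 (-0.81) and the mean of the sets gave -0.23, so for Rbm15b no direction held over probe sets. Dcaf1, which overlaps Rbm15b, was at 8.47 and 8.96 (-0.49). Rbm8a, a core protein of the exon junction complex, was at 11.10 and 10.91 (0.19). Rbm33 differed by -0.27, with 0.12 and 0.03 on its other probe sets.

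The remaining Rbm genes have other roles. The nucleolar proteins Rbm19, Rbm28 and Rbm34, which act in ribosome assembly, differed by -0.07, -0.16 and -0.26. The cold-inducible Rbm3 was at 12.65 and 12.80 (-0.14), and its 3 probe sets lay between -0.14 and -0.12. Its antisense neighbour Rbm3os differed by -0.17, and strand-specific overlap of their probes was not examined. Of the mRNA stability regulators Rbm24 (-0.11) and Rbm38 (-0.04) were below 0 and Rbm47 (0.23) above. The germ cell genes differed by -0.43 (Rbm44), -0.06 (Rbmxl2) and 0.41 (Rbm46, 5.11 and 4.69, below the floor). Rbmx, the X-linked hnRNP G gene, was at 6.44 and 6.99 (-0.55), while 3 probe sets shared by Rbmx and Rbmxl1 gave -0.27 to -0.17. Snord61, a small nucleolar RNA gene inside Rbmx, was at 5.79 and 7.10 (-1.31). Rbm43 had the widest difference upwards of all members, at 6.37 and 5.82 (0.55). Rbm45 differed by -0.16, Rbm18 by 0.08 and Rbm8a2 by 0.08 at a signal far below the floor.

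In the Srsf family Srsf1, the founding SR protein, was at 10.55 and 10.91 (-0.37). Srsf6 was at 9.06 and 9.33 (-0.26), and Srsf2 at 10.82 and 11.06 (-0.24). Srsf9, the closest relative of Srsf1, was at 8.95 and 8.72 (0.23), and Srsf5 at 10.16 and 10.08 (0.07). Srsf4, Srsf11 and Srsf12 differed by -0.02, 0.00 and 0.03. The paralogs Srsf1 and Srsf9 thus lay on opposite sides of 0, each within the range of the 500 genes of like signal. Srsf7 was not analysed here.

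The values of Srsf3 and Srsf10 depended on which probe set was read. Srsf3 is the smallest SR protein and also acts in mRNA export, and Srsf10 is an SR-like protein that represses splicing when dephosphorylated. Array identifiers run in genome order, so the place of a probe set was read from the RefSeq chromosomes and starts of the genes next to it in this order. This was chosen after the data were seen, and for 99.7% of 18862 genes with 1 probe set it returned the place of the gene itself. For 7 of the 11 members with several probe sets some sets lay elsewhere, and in all 7 the set with the highest signal was among these (Hnrnpf, Hnrnph2, Hnrnpk, Rbm3, Srsf3, Srsf5 and Srsf10). The Srsf3 set on its own chromosome 17 was at 8.71 and 10.08, a difference of -1.37 or 2.59-fold, against a range of -1.04 to 0.49 for the 500 genes of like signal. Its sets placed on chromosomes 3 and 15 were at 12.07 and 12.43 (-0.37) and at 11.57 and 11.92 (-0.36). The Srsf10 set on its own chromosome 4 was at 7.36 and 8.43, a difference of -1.07 or 2.10-fold, against a range of -0.83 to 0.55. The set placed on chromosome 13 was at 10.31 and 10.80 (-0.49). With own-locus sets 3 members were lower by log2 1 or more, Rbm12b2, Srsf3 and Srsf10, 5.08% of 59, against a background of 1.82% of 10689 genes, and none was higher against 0.468%. The mean of the Srsf family went from -0.14 to -0.30 and its median stayed at -0.13. Over the 422 genes with both kinds of probe set the own-locus difference was below all others of the gene in 200, and it was under -1 in 15. In Hnrnph2 the own-locus set gave -0.37 in place of -0.21. In Hnrnpf, Hnrnpk, Rbm3 and Srsf5 the sets of a gene differed from each other by at most 0.02 to 0.03.

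**Figure D4:**
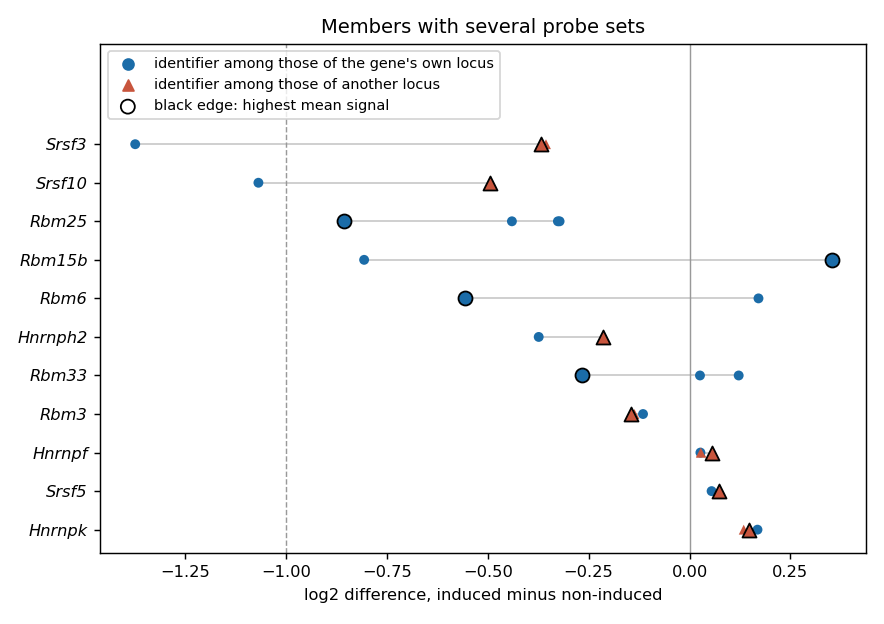
Difference (log2, induced minus non-induced) on each probe set of the 11 members with several. Circles are sets placed at the gene's own locus, triangles sets placed elsewhere, and a black edge marks the set with the highest mean signal. The own-locus sets of Srsf3 (-1.37) and Srsf10 (-1.07) lie beyond the dashed line at -1, and the sets of Rbm15b lie on both sides of 0.

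In the Hnrnp family the genes of the A/B and D group had a median of -0.17, with 4 of 5 below 0. Hnrnpdl, which regulates its own mRNA through a decay-inducing exon, was at 9.73 and 10.31 (-0.58). Its neighbour and paralog Hnrnpd, an AU-rich element binding protein gene, was at 10.97 and 10.99 (-0.02). Hnrnpa0 was at 8.15 and 8.49 (-0.34), Hnrnpa2b1 differed by -0.17 and Hnrnpab by 0.08. Hnrnpr was at 7.72 and 8.07 (-0.35) and Hnrnpc, which binds uridine tracts and masks cryptic exons, at 10.67 and 10.92 (-0.26). Hnrnpll, a regulator of exon choice in lymphocytes, differed by -0.20, and Hnrnpu, a nuclear matrix protein, by -0.13. The other genes stood close to 0 or above it. Hnrnpul1 differed by -0.04, Hnrnpl by 0.02, Hnrnpm by 0.07 and Hnrnpul2 by 0.11. Hnrnpk, a KH domain protein that binds cytosine-rich RNA, was at 12.10 and 11.95 (0.15), and its 3 probe sets lay between 0.13 and 0.17. Mir7-1, whose hairpin lies in an intron of Hnrnpk, was at 8.95 and 9.70 (-0.76). In the F/H group, which binds guanine runs, Hnrnph2 differed by -0.21, Hnrnph1 by -0.15 and Hnrnpf by 0.06.

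A further 10 family symbols were present only on probe sets that the platform gives to several genes, and these entered no count. The 5 sets of Hnrnpa1 and its copies lay between 0.19 and 0.24, and the 9 of Hnrnpa3 between 0.06 and 0.17. Hnrnph3, shared with Aff3, gave 0.28. On the other side, Rbm4 was at 7.12 and 8.0 (-0.88) and Rbm14 at 8.72 and 9.17 (-0.45), each shared with the read-through gene Gm21992. Rbm31y gave -0.55 below the floor. The Hnrnp sets of this kind thus all lay above 0, unlike 11 of the 17 Hnrnp genes counted.

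The promoters were then read for short strings, as a description of what members share that the symbols do not give. RefSeq promoters (GRCm38.p6), from 250 bases before to 50 after a start site, were at hand for 55 members (71 promoters). The 8 strings reported were searched on both strands and were chosen after the values of the members were seen, and longer strings that were also searched are not reported. They were CTCGCGAG, the core of a palindrome known from promoters of housekeeping genes, AGGGGGCGC and its variant AGGTGGCGC, letters of the CTCF consensus, CGGAAG for ETS factors, CCAAT for the CCAAT box, TATAAA for the TATA box, CACGTG for the E-box and TGACGTCA for the cAMP response element. None contains another of them whole.

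The palindrome CTCGCGAG was in 0.919% of 32851 promoters and in those of 1.54% of 15563 genes. Among the 8562 genes above the floor with a promoter, 202 had it. It was in the promoters of 6 of the 55 members. All 6 lay below 0 on the deposited scale, as did 44 of the 59 members above the floor. The string was chosen with these values known, so their direction is no test. The stretches are shown here with the palindrome in capitals.
Rbm39: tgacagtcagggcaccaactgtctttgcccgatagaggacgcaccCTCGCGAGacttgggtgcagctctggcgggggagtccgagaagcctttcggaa
Rbm26: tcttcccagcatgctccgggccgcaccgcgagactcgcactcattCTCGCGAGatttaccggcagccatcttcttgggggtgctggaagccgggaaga
Rbm15: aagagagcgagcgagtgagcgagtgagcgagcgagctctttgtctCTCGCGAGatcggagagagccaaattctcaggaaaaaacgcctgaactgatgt
Srsf10: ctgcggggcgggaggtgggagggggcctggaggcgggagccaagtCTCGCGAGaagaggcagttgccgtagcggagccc
Hnrnph1: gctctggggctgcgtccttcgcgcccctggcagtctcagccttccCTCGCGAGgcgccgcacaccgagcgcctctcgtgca
Srsf4: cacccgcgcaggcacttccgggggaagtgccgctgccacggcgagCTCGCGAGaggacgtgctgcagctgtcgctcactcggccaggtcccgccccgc
The stretches lie at chr2:156180370-156180467 (minus strand), chr14:105177268-105177365 (minus strand), chr3:107333433-107333530 (minus strand), chr4:135856042-135856120 (plus strand), chr11:50376959-50377039 (plus strand) and chr4:131873413-131873510 (plus strand). The palindrome began at -6 (Rbm26), 17 (Srsf10) and 15 (Hnrnph1) from the start site, and at -184 and -196 in Rbm39 and Rbm15. The promoter of Rbm39 holds 2 copies, of which the first is shown. The differences of the 6 genes ran from -0.57 (Rbm39) to -0.02 (Srsf4). Srsf10 enters here with -0.49 from the set placed on chromosome 13, while its set at the locus of the promoter shown gave -1.07. Srsf4 lay above 0 after removal of the trend (0.07) and after the second quantile normalization (0.08). Over the 202 genes above the floor with the string 67.8% were below 0 (median -0.15), against 53.8% (median -0.03) of the 8562 genes above the floor with a promoter. The share was not tested.

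The CTCF-type string AGGGGGCGC was in 1.25% of promoters and 2.11% of genes, and in those of 2 of the 55 members, Rbm45 (-0.16) and Srsf12 (0.03, below the floor). The stretch of Rbm45 is shown, with the match in capitals, since CTCFL reads sites like those of CTCF.
Rbm45: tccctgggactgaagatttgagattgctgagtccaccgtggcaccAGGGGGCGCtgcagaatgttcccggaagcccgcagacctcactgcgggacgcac
It lies at chr2:76369876-76369974 (plus strand), and the match began at -63. Over the 239 genes above the floor with this string 47.3% were below 0, with a median of 0.02. AGGTGGCGC was in 0.457% of promoters and TGACGTCA in 1.79%, and neither was in the promoters of a member. CGGAAG was in 22 of 55 members (16.9% of promoters, 24.7% of genes), CCAAT in 29 (37.4% and 41.7%), TATAAA in 9 (13.6% of each) and CACGTG in 10 (7.15% and 9.52%). A match of letters is a description and not a bound site.

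By chromosome, the 7 X-linked members (Rbm3, Rbm3os, Rbm10, Rbm41, Rbmx, Rbmx2 and Hnrnph2) were all below 0, with a median of -0.21. That median is the value of Hnrnph2 on a probe set placed on chromosome 3 by only 11 of its 20 neighbours in identifier order. The set of Rbm3 was also placed off the X. With own-locus sets for Hnrnph2 and Rbm3, the median was -0.37. On autosomes 39 of 58 members were below 0 (median -0.12), and of those above the floor 37 of 52 (71.2%, median -0.15). Of all X-linked genes above the floor 204 of 305, 66.9%, were below 0 (median -0.18), against 53.0% of 10372 autosomal genes (median -0.02). Direction on the X chromosome was thus shared with genes outside the families.

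Other genes of the same process were set beside the families. Of 13 hnRNP proteins without the symbol, 9 were below 0 (median -0.16), led by Ptbp2 (-0.57), Tardbp (-0.56) and Pcbp4 (-0.36), with Pcbp2 (0.24), Pcbp3 (0.06) and Raly (0.05) on the other side. Of 19 SR-related proteins and SR kinases 12 were below 0 (median -0.16). Clk4, a kinase of SR proteins, was at 8.08 and 8.99 (-0.91), Pnn differed by -0.67 and Acin1 by -0.60, while the kinase Dyrk1a was at 8.45 and 7.94 (0.51) but at -0.19 on its probe set with the lowest signal. Rnps1 differed by 0.20 and Srrm3 by 0.19. The Sm and LSm proteins, most of which form rings on spliceosomal RNAs, were below 0 in 13 of 14 (median -0.25). Lsm5 was at 10.36 and 11.25 (-0.89), Lsm8 differed by -0.60 and Lsm1 by -0.54, and Lsm4 was the 1 gene above 0 (0.17). Snrpg, at -0.03 here, was at 0.17 on its own-locus set, so its direction depends on the probe set.

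Of 16 genes of the U2 particle and SF3 complexes, which recognise the branch point, 11 were below 0 (median -0.20). Sf3b6, which contacts the branch point, was at 10.20 and 11.29 (-1.09). It was the 1 gene of these lists lower by log2 1 or more on the sets with the highest signal. Of all genes above the floor 1.79% met that size. Sf3a1 differed by -0.66 and Snrpb2 by -0.51, with Snrpa1 at 0.29, Sf3b1 at 0.15 and Sf3b3 at 0.12. Sf3b4 was at -0.34, but its own-locus probe set was at 7.06 and 8.45 (-1.39). Of 14 proteins of the U1, U4/U6 and U5 particles 8 were below 0 (median -0.04). Prpf31 differed by -0.33, Prpf4 by -0.18 and Prpf3 by -0.16, against Snrpa by 0.32 and Prpf8 by 0.15. Snrpc differed by 0.15, but by -0.26 on its own-locus set. Of 9 genes of the exon junction complex and nonsense-mediated decay 7 were below 0 (median -0.26), led by Upf2 (-0.49), Smg1 (-0.45) and Smg6 (-0.43), with Smg9 at 0.31 and Casc3 at 0.03. The tissue splicing regulators lay on the other side, with 12 of 31 below 0 and a median of 0.13. Celf1 was at -0.67, but at 0.03 on its probe set with the lowest signal. Tial1 (-0.41) and Elavl3 (-0.40) were next, and Rbms1 (0.44), Mbnl3 (0.44) and Nova2 (0.40) lay furthest above 0 among those that reached the floor. On the deposited scale the tissue regulators were the 1 list of these 7 with a median above 0. The lists were not read with the trend of the difference on signal removed. The median of the U1, U4/U6 and U5 list (-0.04) lay close to 0.

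**Figure D5:**
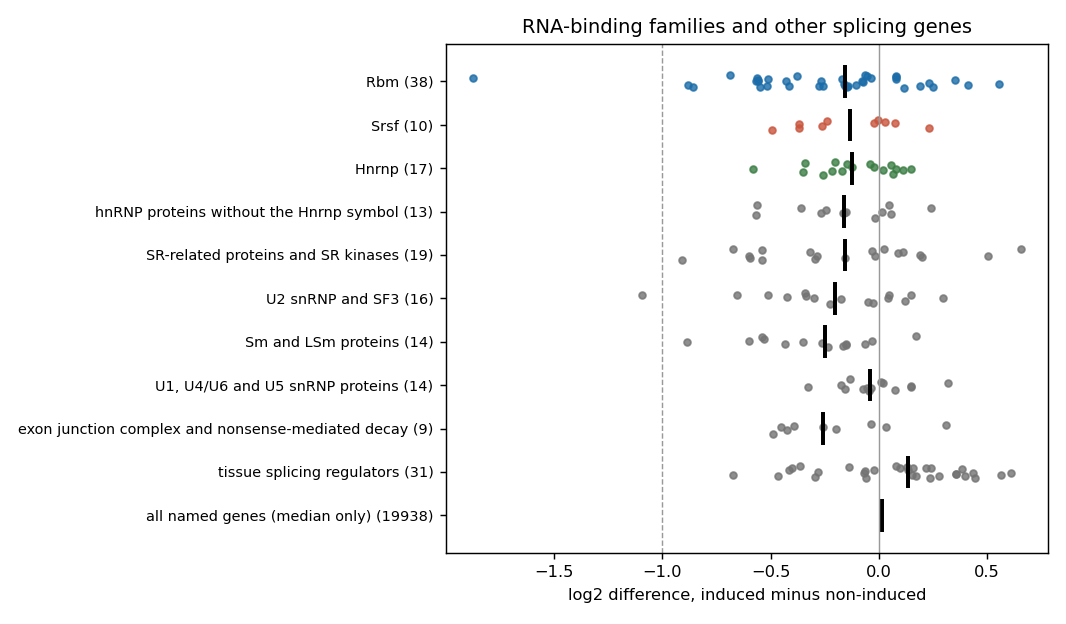
Difference (log2, induced minus non-induced) of each gene in the 3 families and in 7 further lists, 1 point per gene, with the median as a bar and the number of genes in brackets. The last line gives the median of 19938 genes (0.01). The list of the exon junction complex and nonsense-mediated decay has the lowest median (-0.26), next to the Sm and LSm list (-0.25), and the tissue splicing regulators the highest (0.13).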

How the data were processed

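Total RNA (300 ng, Trizol) from 1 induced and 1 non-induced sample was labelled by the authors and read on Affymetrix Mouse Gene 1.0 ST arrays. Groups follow the sample labels. The deposited values are log2 signals per probe set made by the authors with RMA, a method of background correction, quantile normalization and summary over probes that compresses differences of dim genes. The version of RMA was not given in the sources used here, nor was the build of the array annotation. Arrays give no counting depth, and their number limits the precision.

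Of 35557 probe sets 21789 had 1 symbol, 1621 several and 12147 none. RefSeq (GRCm38.p6) held 21698 of the 21789 by gene ID. This gave 19938 genes. Where a gene had several probe sets (999 genes), the one with the highest mean was read. The arrays correlated at r = 0.976 across genes, which are not replicates. A gene was counted at a difference of log2 1 (or 0.58) if its higher value reached the floor of 6.36. Named were all members, and of other lists the 3 widest each way above the floor. The members and lists were chosen with earlier results of these data known. Alternatives were centring, a second quantile normalization, a lowess trend (fraction 0.3), a linear offset of 32, the lowest or the mean of the probe sets per gene, no floor or one at the 75th percentile, the mean, and own-locus probe sets. The call at log2 1 was tested on simulated differences, and the search on both strands on simulated sequence with a planted string. Protein features were not analysed here. Software was matplotlib 3.10.9, statsmodels 0.14.6, scipy 1.17.1, pandas 2.3.3 and numpy 2.4.6 under Python 3.11.15.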

Additional observations from a re-analysis of the deposited data

How the results depend on the processing

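No paired analysis was possible because each group had 1 array. No alternative turned the sign of a family median. Over the alternatives the medians ran from -0.26 to -0.14 for Rbm, -0.24 to -0.10 for Srsf and -0.22 to -0.07 for Hnrnp, where centring gave the lowest values of Rbm and Hnrnp and moved the median of all genes to -0.09. Over the members above the floor alone, the Srsf median was -0.24, since Srsf12 drops out. The count of members lower by the size, 1, became 3 with the lowest probe set, 3 with the own-locus probe set and 5 at log2 0.58, and the count of members higher was 0 in all settings run. Rbm12b2 lay between -1.97 and -1.62. Of 455 values of single members under an alternative, 8 moved by more than the SD of the 500 genes of like signal (0.34 to 0.44), in 5 members (Rbm25, Rbm6, Rbm15b, Srsf10 and Srsf3), and all 8 came from the choice of probe set. Among them Rbm6 changed sign to 0.17 with its lowest probe set, and Rbm15b to -0.81 with its lowest and -0.23 with the mean of its probe sets. Smaller sign changes were more frequent, with 9 of 65 members on the other side of 0 after centring, 10 after removal of the trend, 9 after the second quantile normalization, 3 with the lowest probe set and 1 with the mean of the sets. Of all genes, 191 were lower and 51 higher. The lower count was 108 with the offset, 297 with no floor and 904 at log2 0.58. The higher count was 25 after centring (268 lower), 10 with the offset, 141 with no floor, 8 with the floor at the 75th percentile and 568 at log2 0.58. Dim genes and differences under log2 0.58 are limited by the single array per group.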
